A study of Saccharomyces cerevisiae with 15 samples.

Results

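The 5 genes STL1 (YDR536W), PAD1 (YDR538W), FDC1 (YDR539W), IRC4 (YDR540C) and YDR541C lie next to each other near the right end of chromosome IV of budding yeast (Saccharomyces cerevisiae). They were chosen by name, 5 of the 6659 genes of the deposited table, because YDR541C and genes around it had low values in cells lacking HTZ1 or SWR1. Values of htz1 loss and of swr1 loss, each against libraries with both genes, are therefore given for these genes as a description with no test. Tests that set these losses against each other, or compare them between backgrounds, use the same libraries. All 5 averaged 1 RPKM or more in the 15 libraries, the filter on low values, and are among the 6495 genes tested.

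RNA was sequenced in 15 libraries of 11 haploid genotypes, all in the BY4741/2 background with his-, leu- and ura- markers, grown in rich medium with dextrose to mid-log phase. The mutants were deletions of xrn1 (2 libraries), upf1 (2), htz1 (2) and swr1 (1), the double deletions htz1 xrn1, swr1 xrn1, htz1 upf1 and swr1 upf1 (1 each), a prp43 damp allele alone and with the htz1 deletion (1 each). The wild type had 2 libraries, which the titles number 1 and 3. The labels speak of independent preparations and name no separate cultures. The p-values thus rest on the spread between these libraries, which for upf1 may be technical. The 2 wild-type libraries differ in mating type, and the 2 xrn1 and the 2 htz1 libraries differ in strain markers. The spread within those pairs is therefore also a spread between different strains.

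HTZ1 encodes the histone variant H2A.Z, which replaces H2A in nucleosomes beside promoters, and SWR1 encodes the ATPase of the complex that exchanges it in. In yeast H2A.Z is known for keeping genes near telomeres active by limiting the spread of silencing proteins from the chromosome ends. XRN1 encodes the main cytoplasmic exonuclease that degrades decapped RNA from its 5′ end, UPF1 the core helicase of nonsense-mediated mRNA decay, and PRP43 an RNA helicase of spliceosome disassembly and ribosome assembly.

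In the R64 reference genome, the same build as sacCer3, chromosome IV has 1531933 bases. STL1 is annotated at chrIV:1508005-1509714 on the plus strand, 22.2 kb from the right end. It encodes a glycerol and proton symporter of the plasma membrane, known to be repressed by glucose and induced by osmotic stress. PAD1, at chrIV:1510902-1511630 on the plus strand, encodes the enzyme that makes the prenylated flavin cofactor of Fdc1. FDC1, at chrIV:1512094-1513605 on the plus strand, encodes the decarboxylase of ferulic and other phenylacrylic acids, and works with Pad1. PAD1 and FDC1 are separated by 463 bp. IRC4, at chrIV:1517136-1517675 on the minus strand, was named from a screen for deletion strains with more foci of the repair protein Rad52. YDR541C, at chrIV:1519664-1520698 on the minus strand and 11.2 kb from the end, encodes a putative reductase related to Gre2 and Ari1.

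No stretch of 30 bases from any of the 5 genes occurs elsewhere in the R64 genome, so their reads are not shared with a copy at that length. The table also lists YDR537C, a frame that the R64 annotation used here does not hold. Its value was 0.943 to 1.06 times that of PAD1 in the 15 libraries, so reads of the 2 entries were not told apart.

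The promoter-side windows of 3 of the genes are shown: STL1, which had the largest differences of the 5 genes in the decay mutants, and FDC1 and YDR541C, which had the largest decreases of the 5 without HTZ1. Each window runs from 300 to 51 bases before the start codon, in R64, 5′ to 3′ on the strand of the gene: chrIV:1507705-1507954 on the plus strand for STL1, chrIV:1511794-1512043 on the plus strand for FDC1 and chrIV:1520749-1520998 on the minus strand for YDR541C. Capitals mark CCCCT, the stress response element AGGGG read on the other strand, in STL1 and YDR541C, and a run of T, the A tract AAAAAAA read on the other strand, in FDC1.
STL1: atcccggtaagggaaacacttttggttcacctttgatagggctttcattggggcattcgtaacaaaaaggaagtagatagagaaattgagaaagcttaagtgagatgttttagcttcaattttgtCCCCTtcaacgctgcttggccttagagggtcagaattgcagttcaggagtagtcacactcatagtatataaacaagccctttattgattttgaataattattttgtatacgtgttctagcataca
FDC1: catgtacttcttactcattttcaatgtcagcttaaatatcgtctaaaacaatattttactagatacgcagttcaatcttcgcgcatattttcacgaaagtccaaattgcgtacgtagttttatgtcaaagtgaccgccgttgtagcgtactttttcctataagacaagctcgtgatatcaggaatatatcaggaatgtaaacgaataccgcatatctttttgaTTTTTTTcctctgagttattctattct
YDR541C: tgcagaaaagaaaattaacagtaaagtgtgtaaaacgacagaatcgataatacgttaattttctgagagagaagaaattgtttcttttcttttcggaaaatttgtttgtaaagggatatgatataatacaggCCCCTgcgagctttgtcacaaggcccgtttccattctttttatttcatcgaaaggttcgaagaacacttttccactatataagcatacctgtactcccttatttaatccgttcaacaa
These are matches of letters, on either strand, and not shown to be sites. AGGGG occurred once in the windows of STL1 and YDR541C and in neither strand of the other members, and in 19.2% of the 6001 windows of the genome. AAAAAAA, a tract of the kind that disfavours nucleosomes, occurred in FDC1 and IRC4 and in 47.4% of all windows. TATAAA occurred in STL1 and IRC4 and in 43.1% of all windows. TTACCCG, the Reb1 motif, occurred in no member and in 7.85% of all windows.

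Sequencing depth worked back from the values was 7160196 reads (swr1 upf1) to 57373680 reads (prp43 damp). HTZ1, SWR1, XRN1 and UPF1 were each between 0 and 0.29 RPKM in every library labelled as deleted for them. PRP43 had 42.7 and 55.4 RPKM with the damp allele, against 84.8 to 157 RPKM in the htz1 and wild-type libraries. The MATalpha marker MF(ALPHA)1 was at 1967.59 RPKM or more in wild type 1, swr1, swr1 xrn1 and swr1 upf1, and at 4.72 RPKM or less in the other 11. Reading frames of the ribosomal DNA (rDNA) took 12.1 to 21.2% of the summed RPKM in swr1 xrn1, htz1 upf1, swr1 upf1, htz1 1 and swr1, and 0.0187 to 3.41% in the other 10. All 5 libraries rich in rDNA lack HTZ1 or SWR1, and all 3 swr1 libraries are MATalpha and rich in rDNA. For the swr1 deletion, the rDNA share and the genotype cannot be told apart. Wild type 1 is the only MATalpha library with both genes. Mating type and the swr1 deletion thus cannot be told apart in xrn1 or upf1 cells. In otherwise wild-type cells the match is 1 library against 1, which was not tested. The libraries also differ in the strain markers MET17 and LYS2, which stand at or near 0 in different libraries. Between xrn1 1 and xrn1 2, MET17 had 0.141 and 143 RPKM and LYS2 78.7 and 0.177 RPKM. For htz1 1 and htz1 2 the values were 245 and 0.0816 RPKM for MET17 and 0.122 and 44.4 RPKM for LYS2.

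RPKM, reads scaled by gene length and library depth, allows levels to be set side by side between genes. In the wild type, RPKM averaged 33.3 ± 6.08 for FDC1, 26.9 ± 0.0651 for PAD1, 16.1 ± 4.61 for YDR541C, 4.69 ± 0.536 for IRC4 and 3.98 ± 0.165 for STL1 (SD, n = 2). FDC1 and PAD1 lay closer together than the pair of FDC1 libraries, while YDR541C stood clearly above IRC4 and STL1. Without XRN1 but with HTZ1 and SWR1, the order was YDR541C at 58.7 ± 11.3, PAD1 at 55.1 ± 5.74, FDC1 at 53.1 ± 1.08, STL1 at 30.2 ± 1.94 and IRC4 at 13.1 ± 0.28 RPKM (SD, n = 2). The highest 3 of these did not differ beyond their spread. Across all 15 libraries the highest value was 108 times the lowest for YDR541C, 27.2 times for STL1, 15.9 times for IRC4, 5.03 times for FDC1 and 4.64 times for PAD1.

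**Figure D1:**
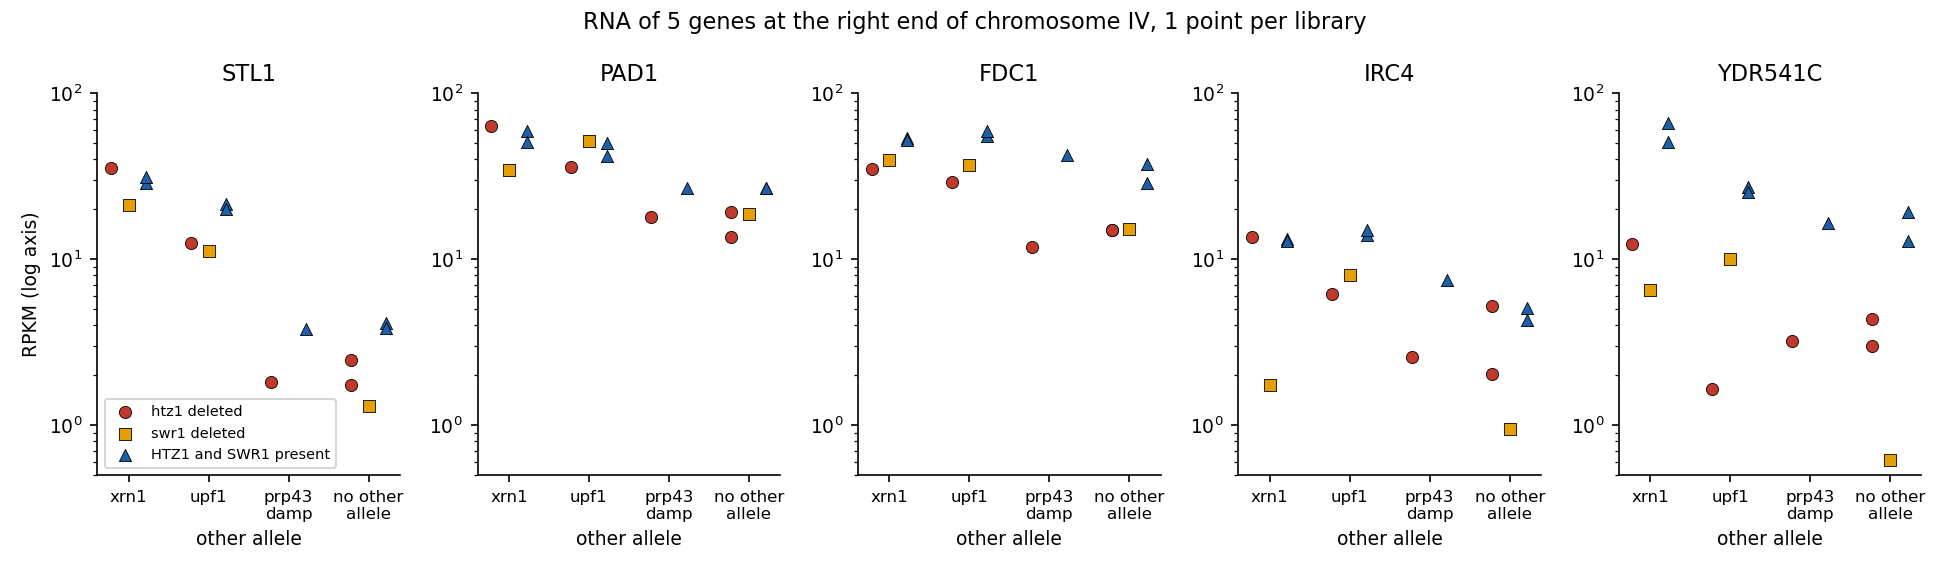
RPKM on a log axis of the 5 genes in each of the 15 libraries (1 point per library), by the other allele in the strain and by H2A.Z state (red circles htz1 deleted, orange squares swr1 deleted, blue triangles both genes present). In YDR541C every circle and square lies below every triangle, from 0.619 to 12.4 against 12.9 to 66.7 RPKM, while STL1 is separated mainly by the other allele.

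YDR541C had the widest gap between libraries with and without the H2A.Z pathway. It had 4.39 and 3.00 RPKM in the htz1 libraries and 0.619 RPKM in the swr1 library, against 19.4 and 12.9 RPKM in the wild type. Without XRN1 it had 12.4 RPKM in htz1 xrn1 and 6.49 RPKM in swr1 xrn1, against 66.7 and 50.7 RPKM in xrn1. Without UPF1 it had 1.65 RPKM in htz1 upf1 and 9.99 RPKM in swr1 upf1, against 27.3 and 25.5 RPKM in upf1. With the prp43 damp allele it had 3.21 RPKM in the htz1 double mutant, against 16.4 RPKM in prp43 damp alone. In each background the mutants lay below the libraries with both genes, without overlap, and the whole set of 8 lay below the whole set of 7. The margin between the whole sets was narrow, 12.4 RPKM in htz1 xrn1 against 12.9 RPKM in wild type 3, with overlapping counting intervals. Of all genes tested, 20 (0.308%) had that order over the 15 libraries, and since the gene was known for this contrast nothing is read from that share. The swr1 value rests on 15 reads, with a counting interval of 0.346 to 1.02 RPKM (95%, exact Poisson, counting error only).

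The size of the YDR541C difference varied with background. In htz1 cells it stood at 22.9% of the intact level with no other allele, 21.2% in xrn1, 19.5% in prp43 damp and 6.24% in upf1. In swr1 cells it stood at 3.83% of the intact level with no other allele, 11.1% in xrn1 and 37.8% in upf1. The percentages are thus in a different order for the htz1 and swr1 deletions, each from 1 or 2 libraries. On the fitted log2(RPKM + 1) scale, which understates changes of low values, YDR541C differed by -2.31 ± 0.23 for htz1 loss (5 libraries against 7, SE) and -2.56 ± 0.33 for swr1 loss (3 against 6). The 8th lowest of 6495 values for htz1 loss and the 13th lowest for swr1 loss were those of YDR541C. Without the rDNA-rich libraries the htz1 value was -2.09 ± 0.18, and among MATa libraries alone -2.30 ± 0.25. The swr1 value ran from -3.18 to -2.15 as single libraries were left out.

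FDC1 was the other gene that lay lower in all 7 pairings of a loss with a background. It had 14.95 and 15.03 RPKM in the htz1 libraries and 15.2 RPKM in the swr1 library, against 37.6 and 29.0 RPKM in the wild type. With the prp43 damp allele it had 11.9 RPKM in the htz1 double mutant, against 42.3 RPKM in prp43 damp alone, the widest gap of the 7. Without XRN1 it had 35.0 RPKM in htz1 xrn1 and 39.9 RPKM in swr1 xrn1, against 53.9 and 52.3 RPKM in xrn1. These are smaller differences, to 65.8% and 75.1% of the intact level, with no overlap between the libraries. Without UPF1 it had 29.2 RPKM in htz1 upf1 and 37.0 RPKM in swr1 upf1, against 55.4 and 59.8 RPKM in upf1. The fitted log2 difference was -1.06 ± 0.15 for htz1 loss and -0.70 ± 0.16 for swr1 loss, and -1.09 ± 0.20 for htz1 loss without the rDNA-rich libraries. Within a single pairing such an order was common: for htz1 loss, 17.4% of all genes lay lower without overlap in otherwise wild-type cells, 40.1% in xrn1, 24.5% in upf1 and 52.3% in prp43 damp. For swr1 loss the shares were 40.7%, 46.6% and 41.9% in otherwise wild-type, xrn1 and upf1 cells. The share of all genes that lay lower in all 7 pairings, or in most of them, was not counted. The pairings also share libraries with both genes, so nothing is read from the counts of pairings for FDC1, PAD1 or STL1.

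IRC4 had its lowest values of all 15 libraries in 2 of the 3 swr1 libraries. It had 0.949 RPKM in swr1 and 5.20 and 2.02 RPKM in htz1, against 5.07 and 4.31 RPKM in the wild type, so the htz1 and wild-type ranges overlap. It had 1.74 RPKM in swr1 xrn1 and 13.7 RPKM in htz1 xrn1, against 13.3 and 12.9 RPKM in xrn1. Here the swr1 double mutant alone was low, at 13.3% of the intact level. It had 8.02 RPKM in swr1 upf1 and 6.19 RPKM in htz1 upf1, against 14.1 and 15.1 RPKM in upf1, and 2.59 RPKM in prp43 damp htz1, against 7.52 RPKM in prp43 damp. The fitted log2 difference was -1.56 ± 0.26 for swr1 loss and -0.61 ± 0.23 for htz1 loss. The gene is short and its counts low, with 12 reads in the swr1 library (0.49 to 1.66 RPKM).

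PAD1, though next to FDC1, varied less with the H2A.Z pathway. It had 13.7 and 19.2 RPKM in htz1 and 18.7 RPKM in swr1, against 26.9 and 26.8 RPKM in the wild type. Without XRN1 it had 63.4 RPKM in htz1 xrn1 and 34.6 RPKM in swr1 xrn1, against 59.2 and 51.1 RPKM in xrn1. Without UPF1 it had 36.2 RPKM in htz1 upf1 and 51.3 RPKM in swr1 upf1, against 50.3 and 42.2 RPKM in upf1. It lay lower in 5 of the 7 pairings and higher in htz1 xrn1 and swr1 upf1. The fitted log2 difference was -0.38 ± 0.15 for htz1 loss and -0.33 ± 0.17 for swr1 loss.

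STL1 had 2.48 and 1.74 RPKM in htz1 and 1.30 RPKM in swr1, against 4.10 and 3.86 RPKM in the wild type, with no overlap. It lay lower in 6 of the 7 pairings, and higher in htz1 xrn1, at 35.3 RPKM against 28.8 and 31.5 RPKM in xrn1. The fitted log2 difference was -0.48 ± 0.17 for htz1 loss and -0.81 ± 0.16 for swr1 loss.

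**Figure D2:**
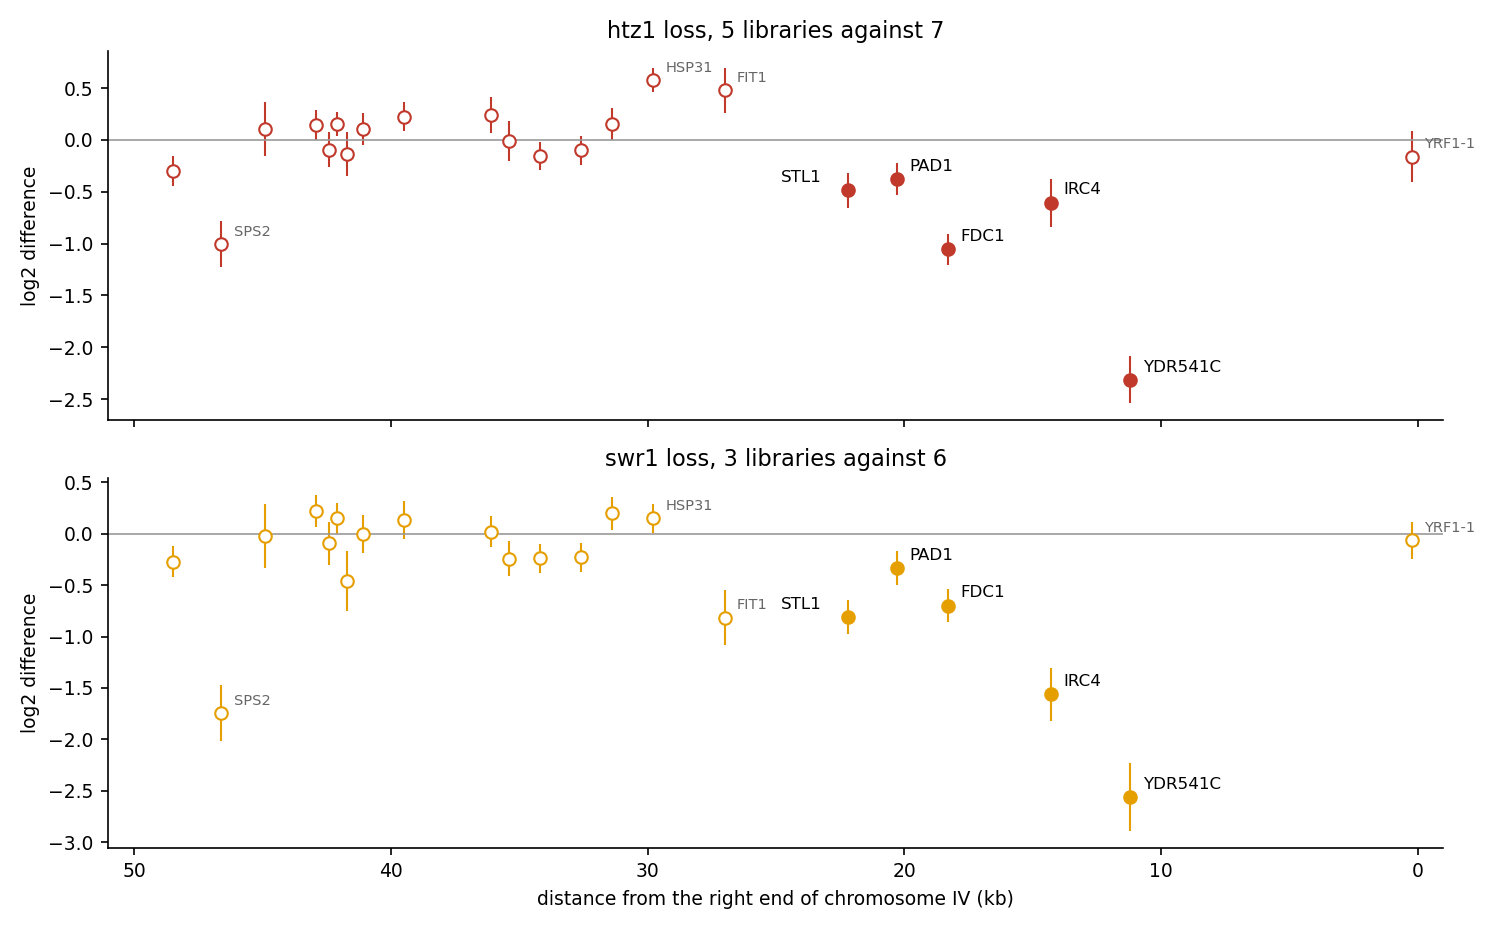
Fitted log2 difference (± SE) for htz1 loss (upper panel) and swr1 loss (lower panel) of the 22 genes tested within 50 kb of the right end of chromosome IV, by distance of the gene from that end in kb; filled points are the 5 genes and open points their neighbours. YDR541C is lowest in both panels, and PAD1 lies above STL1 and FDC1.

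Along the chromosome the differences of the 5 genes did not fall evenly towards the end. For htz1 loss they ran, from STL1 to YDR541C, -0.48, -0.38, -1.06, -0.61 and -2.31, with FDC1 below its outer neighbour IRC4. For swr1 loss they ran -0.81, -0.33, -0.70, -1.56 and -2.56, falling from PAD1 outward. On the inner side the nearest genes tested were FIT1, for a cell wall protein of iron uptake, and HSP31, for a stress-induced methylglyoxalase. FIT1 stood at 0.48 ± 0.22 for htz1 loss and -0.82 ± 0.27 for swr1 loss, and HSP31 at 0.58 ± 0.11 and 0.15 ± 0.14. The 16 tested genes from there to 50 kb had a median of 0.11 for htz1 loss and -0.06 for swr1 loss, the lowest being the sporulation gene SPS2 at -1.003 and -1.74. On the outer side PAU10 averaged 0.828 RPKM and was not tested. YRF1-1, a telomeric helicase gene with near-identical copies at other ends, stood at -0.16 ± 0.25 and -0.06 ± 0.18, and its reads may be shared with those copies.

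Genes at the same distance from the other chromosome ends showed how the right end of chromosome IV compares. At the other 31 ends, 132 tested genes lay between 11.2 and 22.2 kb from the end. For htz1 loss the 5 genes had a median of -0.61, against medians of -1.62 to 0.29 at the other ends, with a middle value of -0.18. For swr1 loss the 5 genes had a median of -0.81, against medians of -1.93 to 0.38, with a middle value of -0.38. The right end of chromosome IV was 3rd lowest of 32 for htz1 loss and 5th lowest for swr1 loss. The limits of the window were set by the 5 genes themselves, and some of the other ends hold only 1 or 2 tested genes in it. As the genes were also chosen from these contrasts, the ranks are a description.

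**Figure D3:**
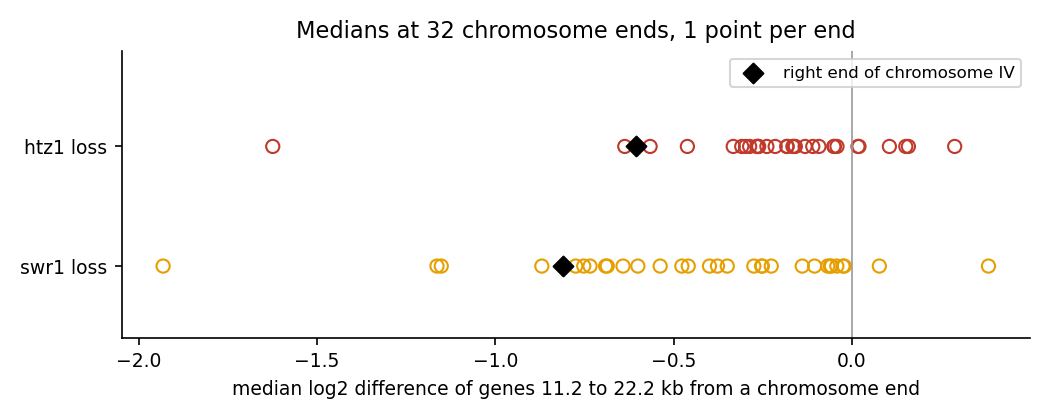
Median log2 difference for htz1 loss (upper row) and swr1 loss (lower row) of the genes between 11.2 and 22.2 kb from each of the 32 chromosome ends (1 point per end; the black diamond is the right end of chromosome IV). The diamond is 3rd from the left in the upper row and 5th in the lower row.

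The htz1 and swr1 deletions were set directly against each other over the same 3 backgrounds (4 libraries against 3). No member was called, where 0.4% of genes were (limma, Benjamini-Hochberg adjusted p under 0.05 over the 6495 genes). IRC4 had the widest difference, 1.09 ± 0.52 higher in htz1 than in swr1 (adjusted p = 0.575, limma). It was 0.52 without either xrn1 double mutant and 1.695 without either upf1 double mutant, with no call. Next came STL1 at 0.43 ± 0.20 (adjusted p = 0.574). YDR541C differed by 0.25 ± 0.64. The value of YDR541C ran from -0.61 to 1.23 as single libraries were left out. The 5 genes were chosen for low values under these same deletions, which bears on this comparison. These p-values therefore do not show that the deletions act alike on the 5 genes.

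Loss of XRN1 was tested over the 3 H2A.Z states, 4 libraries without it against 5 with it. All 5 genes were called higher, where 81.3% of all genes were called and 74.1% called higher, so the count is close to what most genes did. The median of all genes was 0.99 higher on the log2 scale, and differences are given relative to it here. STL1 stood 2.08 above that median (difference 3.07 ± 0.21, adjusted p = 4.9e-06, limma) and YDR541C 0.82 above it (1.82 ± 0.20, adjusted p = 3.41e-05). IRC4 stood 0.27, PAD1 0.25 and FDC1 -0.02 from the median (differences 1.26 ± 0.28, 1.25 ± 0.20 and 0.98 ± 0.16). Once the libraries were rescaled to share a median log ratio, STL1 at 2.12 and YDR541C at 0.86 were called higher, where 31.1% of genes were. PAD1, FDC1 and IRC4 were then not called, at 0.29, 0.02 and 0.31 (adjusted p = 0.289, 0.903 and 0.281, limma).

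STL1 ranked 17th highest of the 6495 genes in this comparison. It had 28.8 and 31.5 RPKM in xrn1, against 4.10 and 3.86 RPKM in the wild type. It had 35.3 RPKM in htz1 xrn1, against 2.48 and 1.74 RPKM in htz1. It had 21.2 RPKM in swr1 xrn1, against 1.30 RPKM in swr1. Every library without XRN1 was thus far above every library with XRN1 and UPF1 both present, by 7.58 times in the intact state, 16.8 times in htz1 and 16.3 times in swr1 (ratios of mean RPKM).

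YDR541C was also higher without XRN1 in each state, although at different levels. The ratio of mean RPKM was 3.64 in the intact state (58.7 against 16.1), 3.36 in htz1 (12.4 against 3.70) and 10.5 in swr1 (6.49 against 0.619). The xrn1 double mutants still lay below the wild-type libraries in YDR541C, but htz1 xrn1 only narrowly. Its 12.4 RPKM (counting interval 11.3 to 13.6) stood against 12.9 RPKM (11.8 to 14.0) in wild type 3, and these intervals overlap. FDC1 in the double mutants, at 35.0 and 39.9 RPKM, lay among or just above the wild-type values of 37.6 and 29.0 RPKM. IRC4 was 3.79 times higher in htz1 xrn1 than in htz1 and 1.84 times higher in swr1 xrn1 than in swr1.

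**Figure D4:**
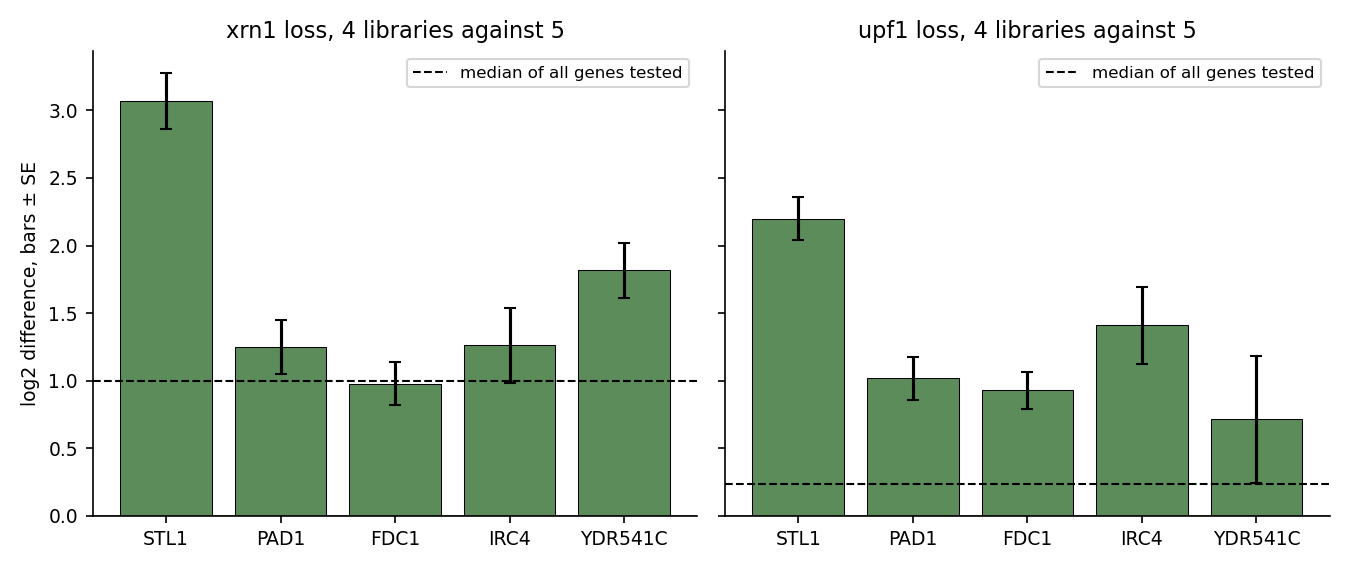
Fitted log2 difference (bars, ± SE) of the 5 genes without XRN1 (left, 4 libraries against 5) and without UPF1 (right, 4 against 5); the dashed line is the median of all 6495 genes. STL1 is the highest bar in both panels, at 3.07 and 2.20, and FDC1 sits at the dashed line in the left panel.

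Loss of UPF1 was tested in the same way, against the same 5 libraries, so the XRN1 and UPF1 results are not independent. Called higher were 4 of the 5 genes, where 29.7% of all genes were called and 28.8% called higher. STL1 rose by 2.20 ± 0.16 (adjusted p = 2.1e-05, limma), IRC4 by 1.41 ± 0.29 (adjusted p = 0.00517), PAD1 by 1.02 ± 0.16 (adjusted p = 0.00128) and FDC1 by 0.93 ± 0.14 (adjusted p = 0.000807). The median of all genes was 0.23, and the 4 genes stood 1.97, 1.18, 0.78 and 0.70 above it. These 4 genes were also called after that rescaling, where 20.9% of genes were called higher. Without the libraries rich in rDNA, 2 were called, STL1 and IRC4, and PAD1 (0.76) and FDC1 (0.78) were not. That fit holds no upf1 double mutant, and its differences rest on the 2 upf1 against the 2 wild-type libraries. The share of all genes called in it is not given here.

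The STL1 values were 21.6 and 19.97 RPKM in upf1, against 4.10 and 3.86 RPKM in the wild type. They were 12.6 RPKM in htz1 upf1, against 2.48 and 1.74 RPKM in htz1, and 11.3 RPKM in swr1 upf1, against 1.30 RPKM in swr1. The libraries without UPF1 were higher in each state, by 5.22, 5.97 and 8.68 times in mean RPKM. IRC4 was 3.11 times higher without UPF1 in the intact state, 1.71 times in htz1 and 8.45 times in swr1.

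YDR541C differed by 0.71 ± 0.47 without UPF1 and was not called (adjusted p = 0.309, limma). Its libraries did not move together: it was 1.64 times higher in upf1 than in the wild type, 16.1 times higher in swr1 upf1 than in swr1, and 0.446 times as high in htz1 upf1 as in htz1. Without the htz1 upf1 library the difference was 1.39 and called (adjusted p = 0.0469, limma). Without the swr1 or the swr1 upf1 library it was 0.10. The htz1 upf1 value rests on 46 reads, the swr1 upf1 value on 74 and the swr1 value on 15.

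XRN1 loss and UPF1 loss were compared directly, 4 libraries against 4. Called was 1 of the 5 genes, where 61.8% of all genes were called and 53.2% called higher. STL1 was 0.83 ± 0.18 higher without XRN1 than without UPF1 (adjusted p = 0.00411, limma). The median of all genes was 0.51 higher, and after scaling STL1 stood at 0.21 and was not called (adjusted p = 0.381). Without the libraries rich in rDNA it stood at 0.52, also without a call (adjusted p = 0.0632, limma), and with the replicate block at 0.52 (adjusted p = 0.076). FDC1, at 0.03 ± 0.12, turned to -0.58 after scaling and was then called lower (adjusted p = 0.00802, limma), where 30.5% of genes were. PAD1, at 0.18 ± 0.21, stood at -0.43 under that scaling without a call. YDR541C stood at 1.002 ± 0.39 and was not called (adjusted p = 0.0523). It stood at 0.56 when the htz1 xrn1 or the htz1 upf1 library was left out (adjusted p = 0.214 and 0.212, limma), and at 1.52 with a call when the swr1 xrn1 or the swr1 upf1 library was left out (adjusted p = 0.00314 and 0.00322, limma). It was also called without the libraries rich in rDNA (1.11, adjusted p = 0.0105) and with the replicate block (1.11, adjusted p = 0.00864). Both of these fits take each difference from the 2 xrn1 against the 2 upf1 libraries, with no double mutant. They give the same differences and are not separate checks, for YDR541C or for STL1. IRC4 stood at -0.25 ± 0.37.

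The prp43 damp allele was tested over 2 H2A.Z states, 2 libraries against 4. No member was called, and no gene of the 6495 either (0%), by limma on RPKM. At an unadjusted p under 0.05 there were 156 genes, and limma voom on recovered reads called 0 of 5805 genes. The differences of the 5 genes were STL1 -0.09 ± 0.25, PAD1 0.07 ± 0.20, FDC1 0.02 ± 0.23, IRC4 0.16 ± 0.37 and YDR541C -0.05 ± 0.26. Those of STL1 and YDR541C turned to 0.01 and 0.06 after scaling.

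Whether the effect of losing the H2A.Z pathway, taken as the mean of htz1 and swr1 loss, differed between backgrounds was tested over all 15 libraries. In xrn1 cells against otherwise wild-type cells no member was called, and no gene of the 6495 (0%), with 143 genes at an unadjusted p under 0.05 and 0 of 5805 genes called by limma voom. STL1 had the widest difference of differences, 0.77 ± 0.36, followed by FDC1 at 0.58 ± 0.30, that is, a smaller log2 decrease in xrn1 cells. YDR541C stood at 0.06 ± 0.41, PAD1 at 0.37 ± 0.33 and IRC4 at -0.18 ± 0.50 (adjusted p = 1 for each to 3 digits, limma). In upf1 cells no member or other gene was called (0%), with 111 genes at an unadjusted p under 0.05 and 0 called by limma voom. The values lay between 0.01 for IRC4 and 0.50 ± 0.33 for PAD1, with YDR541C at 0.27 ± 0.41. With 4 residual degrees of freedom, and genes chosen from the same htz1 and swr1 libraries, these values do not show that the effects were equal.

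The genes of the same pathways were counted from lists chosen by function, on the unscaled values. A value under 0.99 without XRN1 or under 0.23 without UPF1 lies below that of the median gene. Of all genes, 74.1% were called higher without XRN1 and 28.8% without UPF1, and the lists are to be read against these shares. Of 13 genes of glycerol uptake and metabolism, 8 rose and 1 fell without XRN1 (median 0.80, all genes 0.99), and 4 rose without UPF1 (median 0.03, all genes 0.23). Called among them were GCY1, for a glycerol dehydrogenase, at 2.90 ± 0.21 and 1.49 ± 0.16, and DAK2, for a dihydroxyacetone kinase, at 2.99 ± 0.35 and 1.17 ± 0.29. GPP1, for a glycerol-3-phosphate phosphatase, fell by 1.22 without XRN1. Of the 10 genes of osmotic stress signalling, 10 rose without XRN1 (median 1.29, all genes 0.99), where 74.1% of all genes did. Without UPF1, 1 of them rose, STE11 (0.58 ± 0.16). The lists were not counted after scaling. STL1, at 3.07 and 2.20, stood above each gene named here.

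Of the 3 relatives of YDR541C, GRE2, ARI1 and YGL039W, 2 rose without XRN1 (ARI1 0.78 ± 0.13, YGL039W 0.78 ± 0.18), and 1, ARI1, without UPF1 (0.56 ± 0.16). YDR541C stood at -2.31 without HTZ1 and -2.56 without SWR1, where the median of the 3 relatives was 0.24 and -0.29 with no call. Flavin synthesis, which supplies the flavin that Pad1 prenylates, had 6 of 8 genes higher without XRN1 (median 0.89) and 3 of 8 without UPF1, with the riboflavin kinase gene FMN1 at 1.31 ± 0.14. Of 6 tested genes of aromatic amino acid breakdown and decarboxylation, 4 rose and 1 fell without XRN1, and 3 rose without UPF1, among them the regulator ARO80 at 0.95 ± 0.13.

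Of 15 genes named from the same screen as IRC4, 13 rose without XRN1 (median 1.501) and 8 without UPF1 (median 0.83). In the H2A.Z comparisons, 1 of the 15 (IRC21) fell without HTZ1 and 4 fell without SWR1, where 1.48% and 3.53% of all genes were called lower. Without SWR1, IRC4 stood at -1.56 ± 0.26 and IRC19, from the same screen, at -0.81 ± 0.18. Of 9 genes of telomeric silencing, including SIR2, SIR3 and SIR4, 9 rose without XRN1 (median 1.21) and 3 without UPF1 (median 0.31), where 74.1% and 28.8% of all genes did. Without HTZ1, 1 of them fell, the acetyltransferase subunit gene SAS5 at -0.66 ± 0.14, and without SWR1 none was called, with a median of -0.08.

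The genes whose RNA varied most like each member were taken by Pearson's r of log2(RPKM + 1) over the 11 genotype means, which share libraries, depth and scaling. HEF3 (r = 0.996), ATG32 (0.990) and THI6 (0.989) were most like STL1. For PAD1 they were the frame YDR537C (0.998), which shares its reads, and the hexose transporter genes HXT17 (0.977) and HXT13 (0.973). For FDC1 they were SRY1 (0.956), KRE5 (0.928) and CIN4 (0.914), and for IRC4 SNO2 (0.962), SNO3 (0.962) and HPA3 (0.934). For YDR541C they were EMC1 (0.930), WIP1 (0.917) and SOM1 (0.914).

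The members were not the closest to each other. Among the 10 pairs of members r ran from 0.59 for STL1 with YDR541C to 0.93 for STL1 with PAD1. The rank of one member among the genes most like another depended on which was taken first. PAD1 ranked 598th among the genes most like STL1, and STL1 ranked 53rd among those most like PAD1. FDC1 ranked 1202nd for its neighbour PAD1, and PAD1 ranked 149th for FDC1. For YDR541C, FDC1 ranked 61st and IRC4 94th, and YDR541C ranked 205th for FDC1 and 178th for IRC4. The lowest rank was that of YDR541C for STL1, 4425th.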

How the data were processed

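The values are RPKM, as the authors deposited them. Per the submitters' processing notes, STAR 2.4.0, CASAVA and the sacCer3 build were used; for the counter, annotation and strand, none is stated (not given in the sources used here). RPKM times gene length gave whole reads, within 0.1 read, for 100% of the low values examined in each library, and hence the depths and counting intervals. RPKM is relative, so a shift of many genes moves all others. Left out were 3 of 6662 entries, which hold no distinct name and 0.0203 to 0.129% of summed RPKM, and 1 column that matched no sample. Gene positions and sequences came from R64, where 5910 of 6659 names matched. Columns without a number were taken as the first replicate.

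Differences were fitted with limma 3.58.1 in R 4.3.3 on log2(RPKM + 1), with a trend on mean expression, over the 6495 genes averaging 1 RPKM or more, and called at a Benjamini-Hochberg adjusted p under 0.05. H2A.Z state or background was a term. Lone libraries were assumed to vary like replicated ones. The procedure was tested on simulated data. Alternatives were other pseudocounts, filters and scaling, limma voom on recovered reads, an additive model, a replicate block, and left-out libraries. The 5 members, the lists and the comparisons were chosen with earlier results of these data known. Besides the members, named are the genes to 50 kb, the 3 most alike genes by correlation, and up to 3 called genes per list by smallest p.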

Additional observations from a re-analysis of the deposited data

Results flagged for a closer look

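In 5 cases a gene lay higher in 1 state or background and lower in others, or the reverse, with every library of those contrasts on its own side. The contrast that went the other way rests each time on 1 mutant library against 2, and the others on 1 or 2 against 1 or 2. The difference of each single contrast was not tested. Lying lower without overlap was common, at 17.4 to 52.3% of all genes in the pairings of htz1 or swr1 loss with a background. How many genes turn in this way was not counted. The pooled replicate SD on the log2 scale was 0.14 for STL1, 0.20 for PAD1, 0.38 for IRC4 and 0.29 for YDR541C. STL1 was 0.22 higher on the log2 scale in htz1 xrn1 than in xrn1, while it was lower with htz1 loss in otherwise wild-type, upf1 and prp43 damp cells. PAD1 was 0.20 higher in htz1 xrn1 than in xrn1, and lower with htz1 loss in the other 3 backgrounds. PAD1 was also 0.15 higher in swr1 upf1 than in upf1, and lower with swr1 loss in otherwise wild-type and xrn1 cells. IRC4 was 0.06 higher in htz1 xrn1 than in xrn1, and lower with htz1 loss in upf1 and prp43 damp cells, while in otherwise wild-type cells the libraries overlapped (5.20 and 2.02 RPKM in htz1, against 5.07 and 4.31 RPKM in the wild type). YDR541C differed by -0.81 between htz1 upf1 and htz1, while upf1 loss went with higher values in swr1 and intact cells. No group had more than 2 libraries, so none could be examined for a library far from the rest.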

How the results depend on the processing

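Of 960 values recomputed under alternatives, 843 kept their direction and their side of the threshold or moved by less than the replicate spread, 64 turned in sign, 16 lost a call, 7 gained one, and 30 moved further. The sign changes concern values close to 0 or from few libraries, none of them called in the reported fit. Some of those in the interactions set a value for htz1 or swr1 loss alone beside the reported mean of both. The cause of these changes was not tested. After rescaling to a shared median, 2 members were called without XRN1; without XRN1 against without UPF1, PAD1 stood at -0.43 and FDC1 at -0.58. For prp43 damp, STL1 was at 0.010 and YDR541C at 0.058, for htz1 against swr1 PAD1 was at -0.027, and for the upf1 interaction STL1 was at -0.0055 and IRC4 at -0.14.

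Without the rDNA-rich libraries, 2 members were called without UPF1, in a fit that holds no upf1 double mutant. For XRN1 against UPF1 loss YDR541C was called in place of STL1, with FDC1 at -0.11. PAD1 was at -0.040 and YDR541C at 0.060 for prp43 damp, and IRC4 at 0.97 and YDR541C at -0.067 for the xrn1 interaction. That interaction then covers htz1 loss alone, as no swr1 library is left. Among MATa libraries, 2 members were called for XRN1 against UPF1 loss, where IRC4 was at 0.25, and YDR541C was at 0.060 for prp43 damp. There IRC4 was at 0.36 and YDR541C at -0.56 for the xrn1 interaction, and STL1 at -0.023, FDC1 at -0.047, IRC4 at -0.82 and YDR541C at -1.79 for the upf1 interaction. These MATa interaction values cover htz1 loss alone, as every swr1 library is MATalpha. The shares of all genes called without the rDNA-rich libraries and among MATa libraries are not given here. In the additive model YDR541C was at 0.16 for prp43 damp and PAD1 at -0.031 for htz1 against swr1.

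With a pseudocount of 5, 2 members were called for XRN1 against UPF1 loss, and YDR541C was at -0.58 for the xrn1 interaction. STL1 was at -0.18, IRC4 at -0.25 and YDR541C at -0.071 for the upf1 interaction. For htz1 loss STL1 was then at -0.27 and YDR541C at -1.66, and for swr1 loss STL1 was at -0.53, IRC4 at -0.90 and YDR541C at -1.81. With a pseudocount of 0.1 the swr1 values were -0.97, -1.96 and -3.00 in the same order. The share of all genes called with a pseudocount of 5 is not given here.

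Replicate numbers did not pair the libraries: differences between numbers 1 and 2 correlated across genes at 0.19 (xrn1 with upf1), -0.27 (xrn1 with htz1) and 0.13 (upf1 with htz1). With the replicate block, over numbered libraries only and 1 residual degree of freedom, 0 members were called without XRN1, 1 (STL1) without UPF1 and 1 for XRN1 against UPF1 loss. The gene called in that last comparison was YDR541C (1.11) and no longer STL1 (0.52), and FDC1 was at -0.11. The block fits use fewer libraries, and the shares of all genes called in them are not given here. Whether the members lost calls more often than other genes was not tested. Wild type 3 is the only library with its number, so its own block term takes up its value. The block differences for XRN1 loss and for UPF1 loss thus set the mutants against wild type 1 alone, a MATalpha library. Their counts of calls are therefore no check of pairing. For XRN1 against UPF1 loss the block differences come from the same libraries as those of the fit without the rDNA-rich ones. No block was fitted for the other comparisons, so their dependence on it was not examined.

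Leaving out 1 library at a time gave these ranges, for which the shares of all genes called are not given here. For XRN1 against UPF1 loss, 1 to 2 members were called, with PAD1 at -0.019 to 0.43, FDC1 at -0.041 to 0.083, IRC4 at -0.67 to 0.25, STL1 at 0.63 to 0.91 and YDR541C at 0.56 to 1.52. For prp43 damp, PAD1 ran from -0.040 to 0.16, FDC1 from -0.31 to 0.35, IRC4 from -0.27 to 0.59 and YDR541C from -0.18 to 0.060. For htz1 against swr1, PAD1 ran from -0.33 to 0.25, IRC4 from 0.52 to 1.695 and YDR541C from -0.61 to 1.23. For the xrn1 interaction, PAD1 ran from -0.16 to 0.90, IRC4 from -0.82 to 0.45 and YDR541C from -0.28 to 0.40, and for the upf1 interaction IRC4 from -0.73 to 0.75 and YDR541C from -1.51 to 2.06. The ends of these interaction ranges come from fits where the left-out library removed htz1 or swr1 loss from the contrast. They are values for a single deletion and not for the mean of both. For htz1 loss, STL1 ran from -0.70 to -0.41, FDC1 from -1.20 to -0.91 and YDR541C from -2.45 to -1.99. For swr1 loss, STL1 ran from -0.97 to -0.66, PAD1 from -0.57 to -0.17, FDC1 from -0.85 to -0.51, IRC4 from -1.95 to -1.17 and YDR541C from -3.18 to -2.15.

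IRC4 averages under 10 RPKM and has no value under that filter. The htz1 against swr1 comparison has none without rDNA-rich or MATalpha libraries, and neither does the upf1 interaction without the rDNA-rich ones. Depth limits IRC4 and YDR541C most, where single libraries hold 12 and 15 reads.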
